A study of Caenorhabditis elegans with 2 samples.

Results

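Binding of the zinc finger protein PQM-1, which regulates transcription, was examined at 44 genes of metal and heme homeostasis of the nematode Caenorhabditis elegans. These are the protein-coding genes whose symbol begins with zipt-, cdf-, smf-, ftn-, mtl-, cdr- or hrg-, with 6 single genes added by name (ttm-1, sur-7, hizr-1, hmt-1, pcs-1 and cua-1), out of 19973 protein-coding genes on the nuclear chromosomes. The naming rule uses no measured value, though the genes were chosen with earlier results of these data known. Sonicated chromatin of whole hermaphrodite late embryos, 2 h after synchronization by egg bleaching, was precipitated with an antibody to GFP, and the DNA that came down was sequenced. Both biological replicates come from strain OP201, whose genotype is unc-119(tm4063) III with the insertion wgIs201, and which stably carries PQM-1 with GFP and FLAG at its C-terminus. The 2 replicates form 1 group, so that no test between conditions was possible. The measured protein is the tagged transgene product, and whole embryos mix all tissues. The control libraries that the labels name were not analysed here.

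Zinc enters the cytosol through transporters of the ZIP family and leaves it through those of the cation diffusion facilitator family. Iron is taken up by relatives of the divalent metal transporter and held in the protein shells of ferritin, metallothioneins bind zinc, copper and cadmium, and worms, which cannot make heme, take it from food and pass it between tissues with the HRG proteins. PQM-1 is known for its link to insulin signalling and to the sequence TGATAAG, the DAF-16 associated element, which contains the core of a GATA site.

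The authors' lists in build ce11 held 27694 regions for the pooled replicates, 28996 for replicate 1 and 23228 for replicate 2, of which 1241, 999 and 1305 had an authors' q-value of at most 0.01. The replicate and pooled lists are relaxed calls that include background, and 71.3% of pooled, 67.9% of replicate 1 and 68.2% of replicate 2 regions have a q-value above 0.5. The authors' reproducible list held 669 regions, which are the 669 strongest of the pooled list. A gene was given the region with the strongest signal whose summit lay between 1000 bp before and 200 bp after one of its transcript starts. Signal is in the authors' own units, which are not scaled between lists, and rank is the place of a region in the order of signal within its list, with 1 the strongest. Read depth is unknown.

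Below are sequences around 3 pooled summits, given as description, and 2 further stretches with motif copies. The smf-3 copies lay outside the 100 bp searched around its summit, and ftn-1 had no pooled region. The first 3 are given on the plus strand, around the pooled summits of zipt-9, hrg-1 and mtl-1, all of which are genes on the minus strand. Capitals mark 3 motifs on either strand. Thus TGATAA can appear as TTATCA when it is on the minus strand, ACGTG can appear as CACGT, and GTAAACA can appear as TGTTTAC. The windows of zipt-9 (chrV:13715385-13715585) and hrg-1 (chrX:4009036-4009236) reach 100 bp to each side of the summit, and that of mtl-1 (chrV:6691864-6692009) holds only bases upstream of the gene. The 2 further stretches are at smf-3 (chrIV:2618716-2618757, plus strand) and ftn-1 (chrV:7548225-7548261, minus strand), where capitals mark TGATAAG and CACGT.
zipt-9: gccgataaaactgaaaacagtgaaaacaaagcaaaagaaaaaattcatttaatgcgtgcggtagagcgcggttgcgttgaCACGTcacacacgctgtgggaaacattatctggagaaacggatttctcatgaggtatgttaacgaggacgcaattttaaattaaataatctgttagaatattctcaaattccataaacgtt
hrg-1: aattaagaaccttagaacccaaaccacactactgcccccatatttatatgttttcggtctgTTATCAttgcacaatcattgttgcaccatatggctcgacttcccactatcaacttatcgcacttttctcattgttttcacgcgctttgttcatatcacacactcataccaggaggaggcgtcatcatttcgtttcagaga
mtl-1: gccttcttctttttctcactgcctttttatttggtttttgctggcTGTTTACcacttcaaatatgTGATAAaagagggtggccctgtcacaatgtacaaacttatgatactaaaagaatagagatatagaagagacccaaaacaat
smf-3: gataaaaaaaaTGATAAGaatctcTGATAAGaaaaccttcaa
ftn-1: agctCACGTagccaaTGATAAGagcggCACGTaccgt

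Among the 44 metal and heme genes, the promoter of zipt-9 had by far the strongest PQM-1 signal, at 170.3. The next were smf-3, hrg-1, zipt-2.4, zipt-11 and mtl-1, with pooled signals from 64.51 to 78.46, of which the first 4 met a q-value of at most 0.01 and mtl-1 fell just short of it. zipt-1 and ftn-2 followed at 55.5 and 52.9, the other genes with a region stood at 43.41 or below, and 17 of 44 (38.6%) had no pooled region, against 58.9% of all genes. A region of the reproducible list lay in the promoter of 1 of 44 metal and heme genes (2.27%, exact 95% binomial interval 0.0575 to 12.0), against 2.75% of all protein-coding genes. A pooled region with a q-value of at most 0.01 was present at 5 of 44 (11.4%, 3.79 to 24.6), against 4.67% of all genes, and a region of any strength at 27 of 44 (61.4%, 45.5 to 75.6), against 41.1% of all genes. The intervals cover counting error only. Of those 27 strongest regions, 3 had a q-value between 0.01 and 0.05, 6 between 0.05 and 0.5, and 13 above 0.5, so the count of 27 consists mostly of regions that the authors' own q-values do not separate from background. Replicate 1 alone gave a region of any strength at 27 of 44 (61.4%), against 40.9% of all genes, and replicate 2 at 25 of 44 (56.8%), against 37.2%. At a q-value of at most 0.01, replicate 1 gave 1 of 44 (2.27%), against 3.55% of all genes, and replicate 2 gave 5 of 44 (11.4%), against 4.88%.

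**Figure D1:**
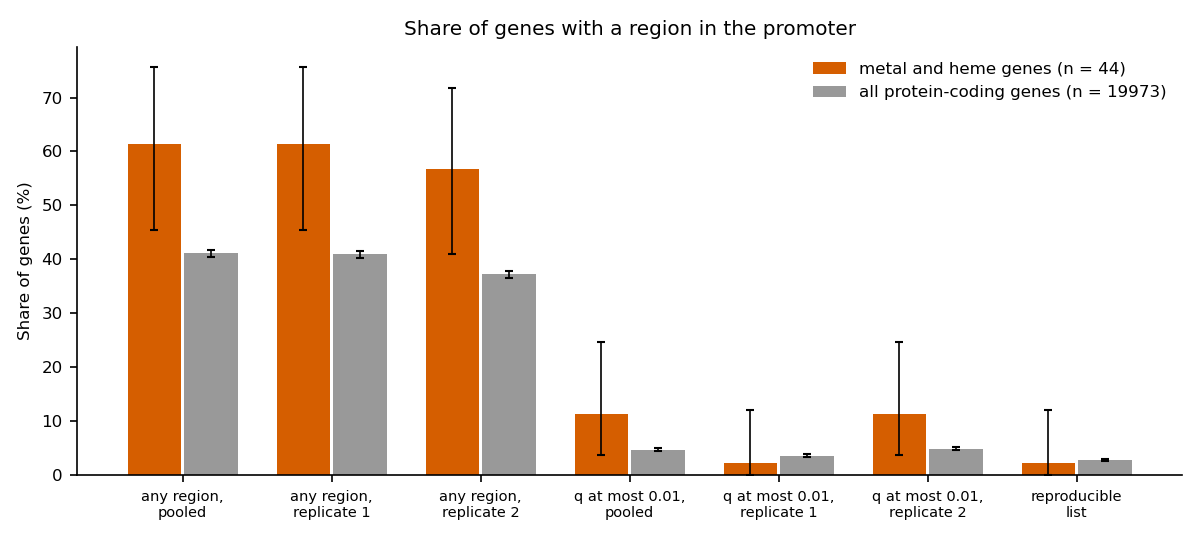
Share of genes (%) with a region in the promoter, for the 44 metal and heme genes (orange) and all 19973 protein-coding genes (grey), by list and threshold; error bars are exact 95% binomial intervals. For regions of any strength the orange bars stand at 56.8 to 61.4% and the grey bars at 37.2 to 41.1%, while in the reproducible list the values are 2.27% and 2.75%.

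When all protein-coding genes were ordered by the signal of their strongest pooled promoter region, the median metal and heme gene stood at percentile 70.63, against 29.45 for all genes, the value shared by every gene with no region. Among genes with a region only, the medians were 61.08 for metal and heme genes and 50 for all genes. In a promoter of 500 bp upstream and 100 bp downstream, 21 of the 44 genes had a region, against 28.9% of all genes, and both medians were 35.53, the value of a gene with none. More than 1 annotated start was found in 43.2% of metal and heme genes, against 26.3% of all genes, which gives the metal and heme genes a mean promoter length of 1586 bp, against 1453 bp. With only the outermost start of each gene counted, 25 of 44 metal and heme genes had a region, against 37.8% of all genes.

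The ZIP family of zinc importers supplied 3 of the 5 genes at a q-value of at most 0.01, and its 14 members covered the whole span from the strongest signal of the 44 genes to no region at all. At zipt-9 the strongest region (V, 13715270 to 13715699, between genes, summit 212 bp upstream of the start) had a signal of 170.3 and rank 77 in the pooled list with a q-value of 0.0019. The same place had a signal of 69.68 and rank 95 in replicate 1 (q-value 0.00205), and a signal of 98.68 and rank 72 in replicate 2 (q-value 0.00465). This was the only one of the 44 genes whose strongest pooled region had a q-value of at most 0.01 at its summit in both replicates (1 of 44, 2.27%, against 2.56% of all genes). A further zipt-9 region lay 414 bp upstream, with a pooled signal of 53.19, rank 2189 and a q-value of 0.0404. In the zipt-9 window printed above, the single marked motif is ACGTG on the minus strand, and TGATAA was not found.

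The other ZIP calls were met in replicate 2 and not in replicate 1. At zipt-2.4 (I, summit 5673502, 150 bp upstream of the start, between genes) the pooled signal was 67.35 with rank 1129 and a q-value of 0.00753. The region had rank 2826 with a q-value of 0.0904 in replicate 1 and rank 1215 with a q-value of 0.00865 in replicate 2. At zipt-11 (I, summit 5509276, 99 bp upstream, between genes) the pooled signal was 65.56 with rank 1203 and a q-value of 0.0079. In replicate 1 the zipt-11 region had rank 3933 and a q-value of 0.167, in replicate 2 rank 856 and a q-value of 0.00526. The zipt-2.4 region also lay in the promoter of T19B4.5, whose start was farther away (802 bp).

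Of the remaining ZIP genes, zipt-1 had the highest values (I, 278 bp upstream, pooled signal 55.5, rank 1954, q-value 0.031), with a q-value of 0.0231 in replicate 2 and 0.278 in replicate 1. Its region lay between the starts of zipt-1 and psf-2 and was in reach of both. The pooled signals of zipt-2.2, zipt-3, zipt-7.1 (known for its part in sperm activation), zipt-17 and zipt-13 ranged from 19.76 to 31.41, with ranks from 9831 to 27023, and zipt-13 had a region in the pooled list only. The zipt-7.2 promoter held a region in replicate 1 only (rank 8830, q-value 0.477). No region in any list was found at the promoters of zipt-2.1, zipt-2.3, zipt-15 and zipt-16. Of the 14 ZIP genes 9 had a pooled region, against 41.1% of all genes, 3 had one with a q-value of at most 0.01, against 4.67%, and 5 had none.

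**Figure D2:**
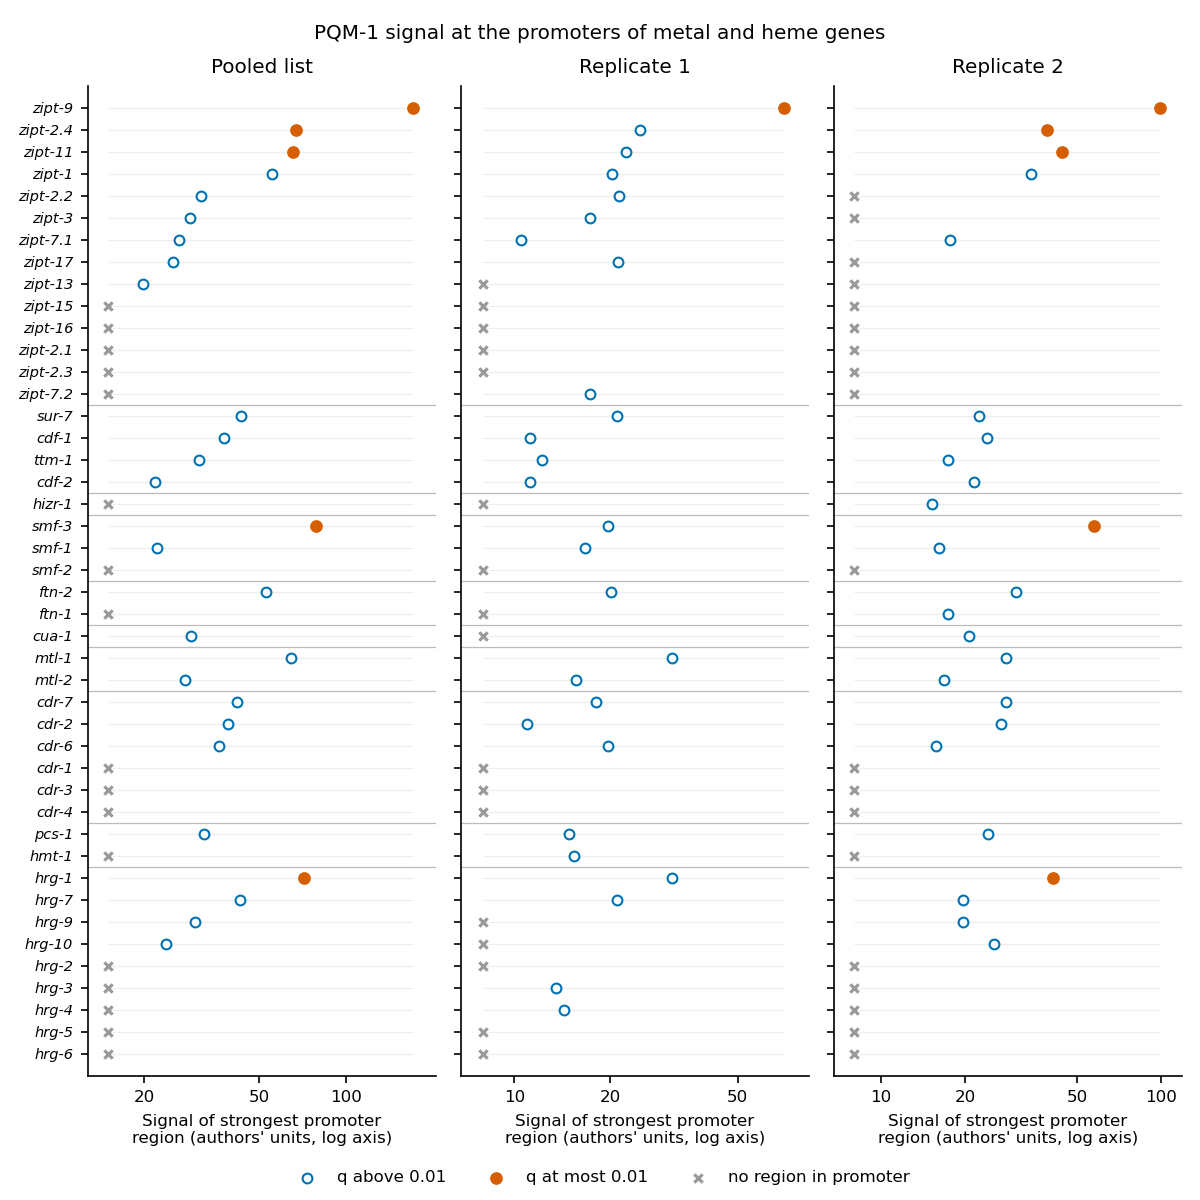
Signal of the strongest promoter region (authors' units, log axis) of each of the 44 genes, grouped by role, in the pooled list and in each replicate's list, which are not scaled to each other; crosses at the left edge mark genes with no region and carry no value. Filled points have an authors' q-value of at most 0.01, which 5 genes reach in the pooled list, 1 in replicate 1 and 5 in replicate 2.

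All 4 zinc exporters of the cation diffusion facilitator family had a region in the pooled list and in both replicates, which holds for 24.8% of all genes, and 0 of 4 had a pooled q-value of at most 0.01, against 4.67% of all genes. The highest was at sur-7, first known from Ras signalling in vulval development (X, 419 bp upstream), with a pooled signal of 43.41, rank 4003 and a q-value of 0.186. Its signal was 20.96 in replicate 1 (rank 4920) and 22.35 in replicate 2 (rank 6626). At cdf-1 the pooled region (signal 37.78, rank 5923) lay 913 bp upstream of its start and 76 bp from the start of the neighbouring gene glr-8, inside a 5' UTR of glr-8. For ttm-1, which exports zinc from intestinal cells, the pooled signal was 30.97 (rank 10212, q-value 0.614). The strongest replicate 2 region of ttm-1 (signal 17.32, rank 13417, q-value 0.772) lay 758 bp upstream of another start. At the pooled ttm-1 summit, replicate 1 had a signal of 12.23 (rank 20329) and replicate 2 one of 15.69 (rank 17007). At cdf-2, which stores zinc in gut granules, the pooled signal was 21.81 (rank 22723, q-value 0.912). Its replicate 1 region (signal 11.19, rank 24105) did not contain the pooled summit, while its replicate 2 region (signal 21.53, rank 7394) did. hizr-1, the nuclear receptor that senses zinc and switches on the high-zinc response, had no pooled region and none in replicate 1. Its single region, in replicate 2, lay 376 bp upstream with a signal of 15.16, rank 18387 and a q-value of 0.885.

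Of the 3 genes of divalent metal transporters, smf-3, the main intestinal carrier of manganese and iron, stood highest (IV, 2618685 to 2619114, summit 31 bp downstream of the start in its 5' UTR). Its pooled signal was 78.46, with rank 745 and a q-value of 0.00604, the second highest promoter signal of the 44 genes. The replicates were far apart in rank: replicate 2 had a signal of 57.28, rank 422 and a q-value of 0.00465, and replicate 1 a signal of 19.65, rank 6020 and a q-value of 0.311. The smf-3 call therefore rests on replicate 2. The 2 copies of TGATAAG printed above lay 139 and 126 bp upstream of the start and 170 and 157 bp from the summit, outside the 100 bp searched around it. At smf-1 the pooled signal was 22.24 (rank 21855, q-value 0.903), 543 bp upstream, with a signal of 16.05 there in replicate 2. The replicate 1 region (signal 16.67) was another one, 86 bp upstream. The smf-2 promoter had no region in any list.

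Both ferritin genes lacked a region at a q-value of at most 0.01 in their promoters. At ftn-2, the more abundant ferritin, the pooled signal was 52.9 (I, summit 85 bp downstream of the start in an intron, rank 2238, q-value 0.0409), with a signal of 20.01 and rank 5696 in replicate 1 and 30.27 and rank 2579 in replicate 2. A stronger region stood just beyond the window, 1196 bp upstream of ftn-2 (I, 3681908 to 3682337, between genes), with a pooled signal of 86.01, rank 592 and a q-value of 0.00592, which places it in the reproducible list. Its rank was 2664 in replicate 1 (q-value 0.0798) and 362 in replicate 2 (q-value 0.00465). Within 100 bp of that summit lay 2 copies of TGATAAG, 4 of ACGTG and 1 of CACGTG, which also counts among the ACGTG matches. ftn-2 was the nearest protein-coding start to it. At ftn-1, the iron-induced ferritin, no region was found in the pooled list or in replicate 1, and the region of replicate 2 had a signal of 17.26, rank 13536 and a q-value of 0.775, 975 bp upstream. ftn-1 is known for an upstream enhancer that combines GATA sites with hypoxia response elements, the sites of HIF-1. In the ftn-1 sequence printed above, TGATAAG lies 664 bp upstream of the start between 2 copies of CACGT, the reverse complement of ACGTG.

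Among the metallothioneins, which bind metal through clusters of cysteines, mtl-1 came next after the 5 genes above. Its region (V, 6691694 to 6692123, summit 46 bp upstream of the start) had a pooled signal of 64.51, rank 1259 and a q-value of 0.0107, just outside the threshold that zipt-11, the weakest called gene, met at 0.0079. Replicate 1 gave a signal of 31.17, rank 1290 and a q-value of 0.0128, and replicate 2 a signal of 28.01, rank 3296 and a q-value of 0.154. GTAAACA, the site of FOXO factors such as DAF-16, lay 3 bp from the mtl-1 summit on the minus strand, and TGATAA lay beside it, as the printed window shows. A TGATAAG site of mtl-1 was 376 bp from the summit, 422 bp upstream of the start. mtl-2 had a weak region in an intron 110 bp downstream of its start, with a pooled signal of 27.79 (rank 13468, q-value 0.729), 15.65 in replicate 1 and 16.76 in replicate 2. The mtl-2 summit was also in reach of T08G5.1 and srh-308. cua-1, a copper-transporting ATPase, had a pooled signal of 28.97 (rank 12204, q-value 0.683) and 20.56 in replicate 2 (rank 8378), and no region in replicate 1.

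At the promoters of the 8 genes of the cadmium response, 0 had a pooled region with a q-value of at most 0.01, which is near the 4.67% of all genes. Of the 6 cdr genes 5 are neighbours. The genes cdr-4, cdr-7, cdr-6, cdr-2 and cdr-3 stand with hrg-2 in a row of 6 genes, all on the minus strand of chromosome V from 12407366 to 12417377. Across these 10012 bp and 1000 bp to each side, 7 pooled summits were listed, 1 of them beyond the 3' end of cdr-4. The strongest had a signal of 42.09 (rank 4408, q-value 0.218) and lay in a coding exon of cdr-6, 726 bp upstream of cdr-7. It was present in replicate 2 with a signal of 27.95 and rank 3317, and the strongest replicate 1 region in the cdr-7 promoter was another one, 978 bp upstream (signal 18.03, rank 7842). The pooled signals were 38.94 at cdr-2 (148 bp upstream, rank 5469) and 36.38 at cdr-6 (263 bp upstream, rank 6558). The promoters of cdr-3 and cdr-4, like that of cdr-1, the cadmium-induced gene that names the family and stands apart from the cluster, had no region in any list. At pcs-1, the phytochelatin synthase, the pooled signal was 32.23 (II, rank 9186, q-value 0.565), with 24.05 at the same place in replicate 2, while the replicate 1 region (14.82) lay at another start of the gene, and the pooled summit was also in reach of smc-6. The promoter of hmt-1, an ABC transporter that confers cadmium tolerance, had a region in replicate 1 only (signal 15.36, rank 12082, q-value 0.623).

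**Figure D3:**
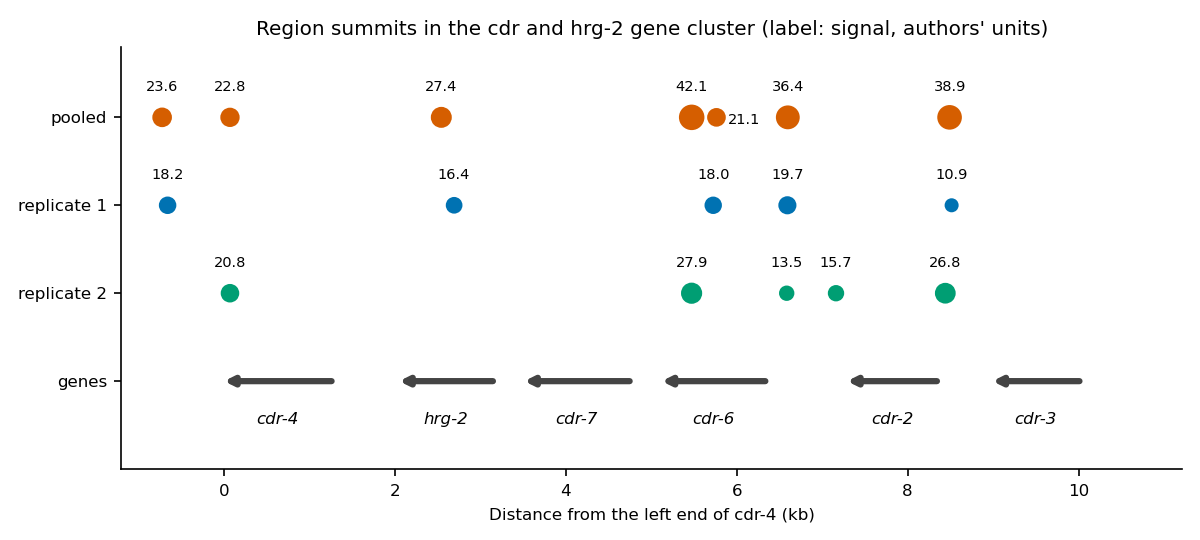
Summits of regions across the row of 5 cdr genes and hrg-2, by list, with distance from the left end of cdr-4 in kb; dot area and label give the signal in the authors' units, and arrows show the genes and their direction. The 7 pooled summits have signals from 21.1 to 42.1, and none stands at the starts (right ends) of cdr-3, cdr-4 or hrg-2.

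The heme-responsive genes were split between hrg-1 and the rest. hrg-1, a heme transporter of the intestine, had its strongest region in an intron, 155 bp upstream of an internal transcript start (X, 4008921 to 4009350). The pooled signal was 71.65, with rank 957 and a q-value of 0.00575. It had a signal of 31.28, rank 1274 and a q-value of 0.013 in replicate 1, and a signal of 41.16, rank 1035 and a q-value of 0.00725 in replicate 2. With zipt-9, hrg-1 was 1 of the 2 genes at a q-value of at most 0.05 in both replicates (4.55% of 44), near the 4.1% of all genes. Its summit also lay inside R02E12.9, an annotated non-coding RNA gene of 146 bp (4009009 to 4009154), the only such overlap among the 27 genes with a region. The outer hrg-1 start had a further region 210 bp upstream with a pooled signal of 43.64, rank 3942 and a q-value of 0.18, so hrg-1 was not called with only outermost starts counted. hrg-7, a secreted protease that signals between tissues about heme, had a pooled signal of 42.87 (rank 4176), and hrg-9 and hrg-10, which move heme from stores, had 30.06 (rank 11031) and 23.72 (rank 19202). The promoters of hrg-3, a chaperone that carries heme from the mother to embryos, and hrg-4, the intestinal heme importer, had a region in replicate 1 only, at ranks 16562 and 14567. No region in any list was found at hrg-2, a heme protein of the hypodermis, or at hrg-5 and hrg-6, relatives of hrg-4. In all 5 of the 9 hrg genes had no pooled promoter region, close to the 58.9% of all genes without one.

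The 2 replicates overlapped in part over these genes, as they did over all genes. Both had a promoter region at 20 of the 44 genes, replicate 1 alone at 7, replicate 2 alone at 5, and neither at 12. Of all 19973 genes, both had one at 5167, replicate 1 alone at 3006, replicate 2 alone at 2255, and neither at 9545. The strongest promoter region was taken from each list by itself, so the regions of a gene need not lie at the same place. In replicate 1 no region held the pooled summit of cdf-2, cdr-7, pcs-1 or smf-1. The strongest replicate 2 regions of cdr-6 and ttm-1 also lay elsewhere, 827 and 758 bp upstream of a start. A region in all 3 lists was found at 20 of 44 metal and heme genes (45.5%, 30.4 to 61.2), against 24.8% of all genes, and no region in any list at 11 of 44 (25%, 13.2 to 40.3), against 45.9%. Across the 20 genes with a region in both replicates, the Spearman coefficient of the signals was 0.582, against 0.538 across 5167 genes of the genome. These are correlations across genes, which are not independent replicates, and neighbouring genes can share a region. For some genes they pair signals from different places.

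**Figure D4:**
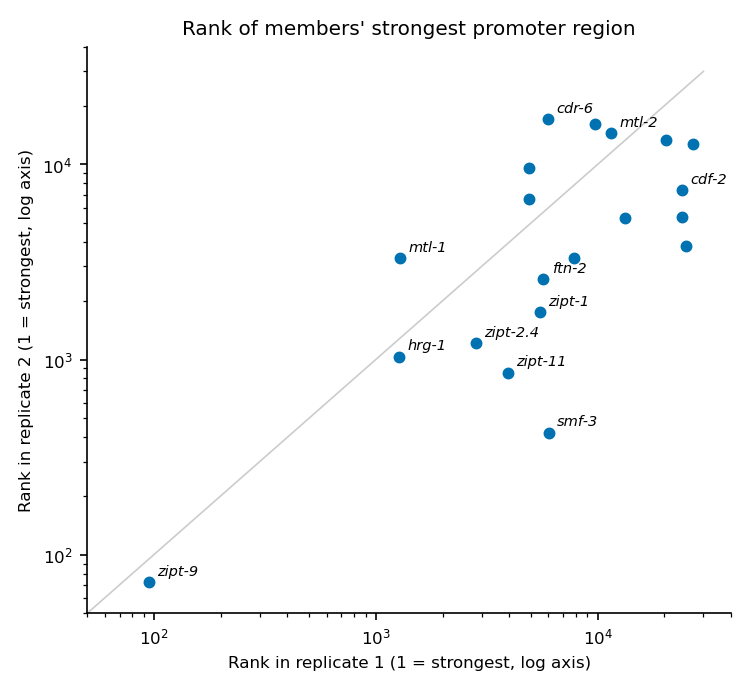
Rank of the strongest promoter region in replicate 1 and in replicate 2 (both log axes, 1 is the strongest) for the 20 genes with a region in both; the grey line marks equal ranks, in lists of 28996 and 23228 regions. zipt-9 stands alone at ranks 95 and 72, and smf-3, at 6020 and 422, lies farthest below the line among the called genes. The regions of a gene in the lists of replicates 1 and 2 need not lie at the same place.

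The summits lay close to starts, at a median of 183 bp from the nearest start of the gene for the 27 metal and heme genes with a region, against 266 bp for all genes with one. A short distance was not particular to them. The median was 174.5 bp for 70 glutathione transferase, cytochrome P450 and glucuronosyltransferase genes with a region. For 12 further genes of metal and heme handling outside the naming rule it was 245 bp. Upstream of the start were 21 of the 27 (77.8%), against 84.2% for all genes. The summits of 18 genes lay within 300 bp of a start, and these included all 5 called genes, mtl-1, zipt-1 and ftn-2. The share within 300 bp was not computed for all genes, whose median of 266 bp is also below that distance. Distance was taken to the nearest of a gene's starts. More than 1 start was found in 43.2% of metal and heme genes, against 26.3% of all genes, and the part of this was not tested. By annotation 13 of the 27 summits lay between genes, 6 in introns, 4 in coding exons, 3 in 5' UTRs and 1 in a 3' UTR. The summits of cdf-1, mtl-2, pcs-1, zipt-1 and zipt-2.4 were in the promoter of another gene as well, and for cdf-1 alone of the 5 the other gene's start was the nearer. Over all genes, the split by annotation and the share of summits in reach of another gene were not computed. No gene for tRNA, rRNA, snRNA or snoRNA came within 200 bp of any of the 27 summits.

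**Figure D5:**
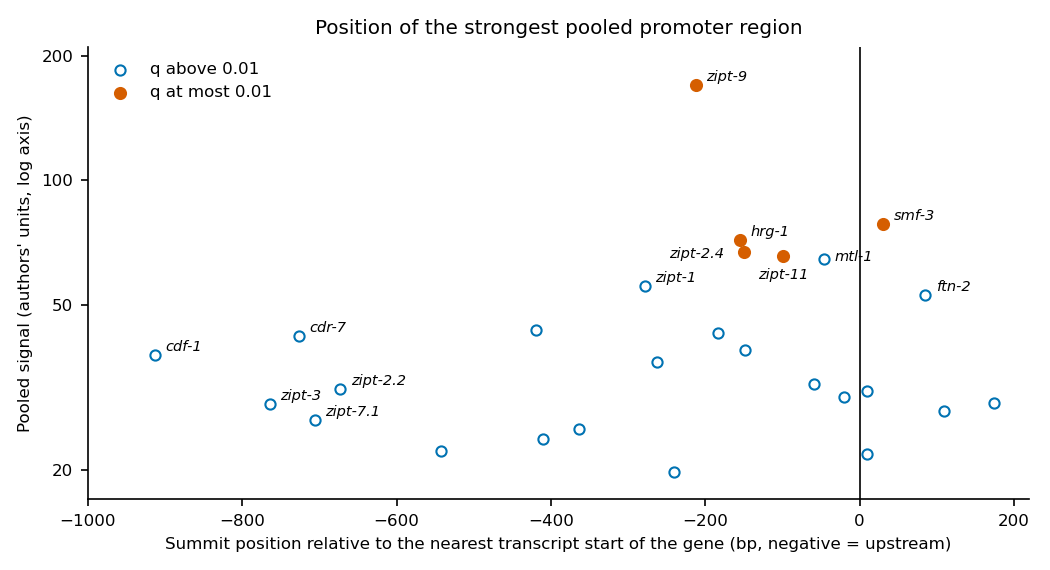
Summit position relative to the nearest transcript start of the gene (bp, negative is upstream) and pooled signal (authors' units, log axis) of the strongest promoter region of 27 metal and heme genes; filled points have a q-value of at most 0.01. All 8 genes with a signal above 50 have their summit within 300 bp of a start, and cdf-1 at 913 bp upstream is the farthest.

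Around the summits, 6 short motifs were searched on both strands within 100 bp to each side. TGATAAG was present at 1 of 27 metal and heme genes with a region, zipt-2.4, where it lay 77 bp from the summit (3.70%, exact 95% interval 0.0937 to 19.0), against 7.88% of 8208 genes with a region. TGATAA, which includes every TGATAAG, was present at 8 of 27 (29.6%), against 20.3%, among them hrg-1 and mtl-1. ACGTG, the core of the hypoxia response element, was present at 4 (14.8%), against 19.8%, at zipt-9, smf-3, zipt-1 and cdr-6. CACGTG, each copy of which holds ACGTG, was present at 1 gene, zipt-1 (3.70%, against 4.82%). GTAAACA was present at 2 genes, mtl-1 and smf-1 (7.41%, against 2.77%), in both 3 bp from the summit. The smf-1 region had a pooled q-value of 0.903, and replicate 1 had no region at that summit. GAGAGAGA was present at 0 of 27, which allows a share of up to 12.8%, against 4.52%. With counts of 0 to 8 of 27, all these intervals for metal and heme genes are wide. A match is a run of letters and not evidence of a bound site.

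In whole promoters at least 1 copy of TGATAAG was present in 18 of 44 metal and heme promoters (40.9%, 26.3 to 56.8), against 23.7% of all promoters. The promoters of hrg-4 and hrg-6 share a site, the only copy of hrg-6, and the interval counts them separately. Of those 18 genes, 9 had no pooled region. Among the 9 with one, TGATAAG lay within 100 bp of the strongest summit at 1, zipt-2.4 (11.1%, 0.281 to 48.2), against 28.9% of 2029 genes with the motif and a region. Among the other 17 were smf-3 and ftn-2 with 2 copies each, hrg-4 with 2 copies and no pooled region, and cdr-1, hrg-3, hrg-5 and zipt-2.3 with 1 copy each and no pooled region. The copies of hrg-1 and ttm-1 lay at a start other than that of the strongest region, 6912 and 1599 bp from its summit. Such cases were not counted over all genes. The shares in whole promoters were 84.1% against 72% for TGATAA, 65.9% against 66.3% for ACGTG, 18.2% against 18.4% for CACGTG, 27.3% against 15.1% for GTAAACA and 6.82% against 8.69% for GAGAGAGA. The greater mean promoter length of the metal and heme genes bears on these shares, and its part was not tested.

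Inside the genes, away from promoters, 2 regions were as strong as those of the reproducible list. The gene body of 2 of 44 metal and heme genes (4.55%, 0.555 to 15.5) held a summit of that list, against 1.01% of all genes. Gene length was not taken into account in these shares. The larger was in an intron of hmt-1 (III, 11091660 to 11092089), 8089 bp from the start, with a pooled signal of 166.3 and rank 86. It ranked 208 in replicate 1 and 49 in replicate 2, with q-values of 0.00205 and 0.00465, and lay 754 bp from an snRNA gene. The sur-7 region (X, 16377937 to 16378366) had a pooled signal of 104.5 and rank 343, ranked 1626 in replicate 1 (q-value 0.0237) and 215 in replicate 2, and its summit lay inside a tRNA gene in an intron of sur-7. An intronic region of zipt-15 had a pooled signal of 61.68, rank 1441 and a q-value of 0.0122. Thus hmt-1 had the second strongest region of any metal and heme gene, but none at its start in the pooled list.

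Other genes of metal and heme handling outside the naming rule were set beside these. Of 21 genes listed, 12 (57.1%) had a pooled promoter region, against 41.1% of all genes. A pooled region with a q-value of at most 0.01 was present at 2 (9.52%), against 4.67%. These were mrp-5, the exporter that passes heme out of the intestine (X, 155 bp upstream, signal 85.46, rank 600, q-values 0.00247 and 0.00465 in replicates 1 and 2), and elt-2, the GATA factor of the intestine (X, 593 bp upstream, signal 82.84, rank 652). Both regions are in the reproducible list (2 of 21, 9.52%), against 2.75% of all genes and 2.27% of the 44 metal and heme genes. aco-1, the iron-sensing aconitase, had a pooled q-value of 0.0401, and hif-1, the hypoxia factor that represses ftn-1, had one of 0.409, with 0.0384 in replicate 1. Against 185 genes of glutathione transferases, cytochromes P450 and glucuronosyltransferases, the metal and heme genes had a pooled region at 61.4%, against 37.8%, and one with a q-value of at most 0.01 at 11.4%, against 2.70%. At that threshold the shares were 2.27% against 2.16% in replicate 1 and 11.4% against 1.62% in replicate 2. For all genes they were 3.55% in replicate 1 and 4.88% in replicate 2. More than 1 annotated start was found in 17.8% of the 185 genes, against 43.2% of the metal and heme genes. The mean promoter lengths were 1284 and 1586 bp, and the part of this in the shares was not tested. Such lists were chosen with results of these data known, and the difference between them was not tested.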

How the data were processed

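Chromatin immunoprecipitation and sequencing of tagged PQM-1 was measured in 2 biological replicates of 1 group. Regions were called by the authors for each replicate by itself and for both pooled, as the deposited README text and the names of the lists say, as relaxed input to an irreproducible discovery rate step, which gave the reproducible list. Signal was taken as deposited from the narrowPeak column of that name and has no common scale across lists. The −log10 q-value, also as deposited, was turned back into a q-value. Not given in the sources used here were the aligner, the peak caller and the reproducibility threshold. The 5 lists used were 4 in build ce11 and, for its number of regions alone, the reproducible list in ce10. Of the per-sample columns 0 were left unmapped. The lists carry no read counts, and the depth per sample is unknown.

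From these lists each protein-coding gene of Ensembl release 115 for WBcel235, which corresponds to ce11, was given its strongest region in a promoter, as described in the report. Sequences are from the RefSeq genome of that assembly, and 0 regions lay beyond a chromosome end. No sequence is printed for genes on chromosome I. Shares carry exact binomial (Clopper-Pearson) 95% intervals. No test between groups was made. The search was tested on simulated regions planted at known places. The tools were scipy 1.17.1, pandas 2.3.3, numpy 2.4.6 and matplotlib 3.10.9 under Python 3.11.15.

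The 44 genes, the other lists and the settings were chosen with earlier results of these data known. By the rule for named genes every one of the 44 is named. Full values go to those whose strongest pooled promoter region has a q-value of at most 0.01 in any list, to the strongest of each family, to the single genes and to mtl-1, mtl-2, ftn-1, ftn-2, cdf-2 and hrg-1. The rule for sequences covered shorter stretches at called genes and at TGATAAG sites; the longer windows and the mtl-1 sequence, which is outside that rule, were chosen after their values were seen. Regions outside promoters, R02E12.9 and neighbouring genes were also named after their values were seen. Alternatives were narrower and wider promoters, region overlap, nearest or outermost starts, regions without small RNA neighbours, each replicate alone, other thresholds and other motif windows.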

Additional observations from a re-analysis of the deposited data

How the results depend on the processing

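Of 57 alternative values for 6 results, 37 stayed within the set limits (1.5 times for a count, the spread between replicate medians for the percentile) and 20 did not. The count of 27 genes with any pooled region moved past its limit under none of the alternatives run. That limit is on the count and leaves out the share of all genes. Promoters from 500 bp upstream to 100 bp downstream gave 21 of 44, against 28.9% of all genes. Those from 2000 bp upstream to 500 bp downstream gave 31, against 55.85%. Any overlap gave 28, against 47.1%, the nearest start only 26, against 36.0%, and the outermost start only 25, against 37.8%. With promoters from 500 bp upstream to 100 bp downstream, the median percentile of metal and heme genes was 35.53, the same as for all genes. That is the value of a gene with no region. TGATAAG was at 2 of the 21 genes with a region, against 8.74% of all genes with one. With promoters from 2000 bp upstream to 500 bp downstream, 2 of 44 genes had a reproducible region (zipt-9 and ftn-2), against 3.675% of all genes. The median was 64.28 against 50 for all genes, and 3 of the 31 genes with a region held TGATAAG, against 7.2%. Counting any overlap gave 2 of 44 genes in the reproducible list, against 3.01% of all genes. It gave 2 of 28 with TGATAAG, against 7.51% of all genes with a region. As many pooled regions as the ce10 list holds gave 3 of 44 genes, against 3.755% of all genes. A q-value of at most 0.05 gave 8 pooled calls, against 7.86% of all genes, and 2 in both replicates, against 4.1%; at most 0.001 gave 0, since the smallest pooled q-value is 0.0019. The median was 72.87 with the nearest start only, against 31.98 for all genes, and 67.17 with the outermost start only, against 31.1. Among genes with a region it was 61.08, against 50. Within 50 bp of the summit TGATAAG was found at 0 of 27 genes, against 4.47% of all genes with a region. Within 200 bp it was found at 4 of 27, against 12.24%. Replicate 1 alone gave 1 gene (zipt-9) among as many of its own strongest regions as the reproducible list holds, against 2.54% of all genes. It gave 1 call at a q-value of at most 0.01 (zipt-9), against 3.55%. TGATAAG was at 4 of its 27 genes with a region, against 7.08%. Replicate 2 alone gave 2 genes (zipt-9 and smf-3) among its strongest regions, against 2.67%, and 5 calls, against 4.88%. TGATAAG was at 2 of its 25 genes with a region, against 8.04%. No paired analysis was possible because the series has 1 group. With 44 genes and 2 libraries of unknown depth, a gene with no listed region was not detected rather than shown to be unbound.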
